A study of Rattus norvegicus with 14 samples.

Results

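Cyp2c7 and Cyp2c22 are rat liver cytochrome P450 genes whose products oxidize retinoic acid, and Cyp2c7l1 is a neighbouring gene that the array annotation pairs with Cyp2c7. Their probe sets, the groups of probes that measure 1 transcript, were taken as all those whose annotated symbol is or contains Cyp2c7, Cyp2c7l1 or Cyp2c22. There were 5 of 8740: 1 for Cyp2c7 alone (M14775_s_at), 3 for Cyp2c7 and Cyp2c7l1 together (M18335_f_at, M31031mRNA_f_at and rc_AA945573_f_at) and 1 for Cyp2c22 (M58041_s_at). The genes were chosen for their difference between the diets, so their levels by diet are given as a description with no test.

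The study measured liver RNA of male rats, 74 days old, kept for 53 days on a diet sufficient in vitamin A or on one lacking it (deficient). The labels give no strain, diet composition or liver retinol. In each diet 4 Affymetrix arrays, numbered 1 to 4, were made from about 10 µg of total RNA and 3, numbered 1, 2 and 4, from about 2 µg, which gave 14 arrays. The arrays that share a diet and a number were averaged, and each average is written as an animal (n = 4 per diet), although the labels do not state that they share a liver, and animal 3 of each diet rests on its 10 µg array alone. Any p-value for the diet therefore measures the spread between these averages, which may be technical. Those for the RNA amount and its interaction with diet rest on separate arrays or on pairs of arrays.

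Vitamin A is stored in the liver as retinyl esters and acts mainly through retinoic acid, which binds nuclear receptors on DNA and switches target genes on. Retinoic acid is removed by P450 enzymes that oxidize it, chiefly those of the Cyp26 family, with a further contribution from members of the Cyp2c family, so that the hormone and the enzymes that clear it are linked. In rat liver, Cyp2c genes are also known for their dependence on the sex-specific pattern of growth hormone release. Cyp2c7 is more abundant in females, whereas the animals here were male.

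All 8 measured Cyp2c genes of this account lie on chromosome 1 of the GRCr8 rat assembly. Cyp2c7 (gene 29298) spans chr1:247966295-248022393, Cyp2c7l1 (gene 100361547) chr1:248369691-248424340 and Cyp2c22 (gene 171518) chr1:248941143-248980767. The interval between Cyp2c7l1 and Cyp2c22 holds Cyp2c12 and Cyp2c13, described with the other Cyp2c genes. The probe sets themselves have no coordinates here.

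The sequences just upstream of both retinoid-linked genes are shown because retinoic acid receptors bind direct repeats of a short half-site. They come from RefSeq's GRCr8 annotation, read on the strand of the gene, and stop before the first annotated base of the gene. The stretch for Cyp2c7 covers chr1:247966144-247966294 on the plus strand (151 bases) and that for Cyp2c22 chr1:248980768-248981017 on the minus strand (250 bases). Capitals mark a half-site on either strand, which was taken as AGGTCA or its variant GGGTCA, and likewise as AGTTCA or its variant GGTTCA.
Cyp2c7: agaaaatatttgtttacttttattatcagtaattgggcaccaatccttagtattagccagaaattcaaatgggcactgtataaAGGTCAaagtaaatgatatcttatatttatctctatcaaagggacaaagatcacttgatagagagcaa
Cyp2c22: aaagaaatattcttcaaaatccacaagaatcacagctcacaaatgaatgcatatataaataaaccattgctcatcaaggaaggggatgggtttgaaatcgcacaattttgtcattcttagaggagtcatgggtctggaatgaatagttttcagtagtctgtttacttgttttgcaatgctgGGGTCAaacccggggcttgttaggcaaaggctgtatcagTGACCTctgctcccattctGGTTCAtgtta

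The windows searched were 300 bases long, from 250 bases before the start in RefSeq's promoter table to 50 after it. For Cyp2c7 that start lies inside the gene interval, so the printed stretch is shorter. In these windows Cyp2c7 held 1 half-site and Cyp2c22 held 4, of which AGGTCA and AGTTCA were on the opposite strand. The single match of Cyp2c7 was AGGTCA, 167 bases before the start and overlapping a TATAAA by 1 base. A further TATAAA lay 31 bases before the same start, inside the gene interval, and Cyp2c22 held 1 TATAAA, 197 bases before its start. On neither strand did a window hold TTATGTAA, a site type of clock-output factors, or CAAAGTCCA, a site type of Hnf4a, which 0.893% and 0.391% of all windows did. Over 33469 promoter windows of this length, 44.4% held at least 1 of the 4 half-sites, 16.2% held AGGTCA and 3.38% held 3 or more half-sites. Neither window held a pair of half-sites on 1 strand with 0 to 8 bases between them, which 1.41% of the windows did. These matches describe letters in a window and are no evidence of binding.

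Cyp2c7 was abundant in every sufficient liver and near the bottom of the scale in every deficient one. The deposited intensity of M14775_s_at had a lowest, median and highest value of 2593, 9537 and 21498 on the 7 sufficient arrays. On the 7 deficient arrays the values were 5.5, 8.2 and 70.1. The lowest sufficient array was thus 37.0 times as bright as the brightest deficient array, and the diets did not overlap.

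On the log2 scale, where a level is log2 of the scaled intensity plus 16, Cyp2c7 in sufficient animals 1 to 4 was 10.40, 12.29, 12.01 and 13.40. In deficient animals 1 to 4 it was 4.99, 5.41, 4.14 and 4.28, against a floor of 4 for an intensity of 0. Animal 1 was the low sufficient liver and animal 4 the high one, while the deficient animals lay close to the floor. The means were 12.02 ± 1.24 (SD, n = 4) in sufficient and 4.70 ± 0.60 (SD, n = 4) in deficient livers, a log2 difference of -7.32 (standard error, SE, 0.52). Each SE given is the moderated one of the limma fit, which draws on the variance of all tested probe sets. For Cyp2c7 it is smaller than these SDs alone would give. Since the deficient level is set largely by the added 16, the difference was -8.91 with 1 added and -5.82 with 64.

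The 3 probe sets annotated to Cyp2c7 and Cyp2c7l1 carry the maker's mark for probes that match a gene family, so the share of each gene in their signal is unknown. M14775_s_at and M58041_s_at lack this mark, but they too may bind close relatives. Their sufficient arrays ranged from 2968 to 16029 for M18335_f_at, from 1748 to 9462 for M31031mRNA_f_at and from 2424 to 7948 for rc_AA945573_f_at in deposited intensity. Their deficient arrays ranged from 34.6 to 192, from 116.4 to 208.7 and from 131.5 to 272.1. Deficient signals were lower on every array, and the lowest sufficient array exceeded the highest deficient one 15.5, 8.38 and 8.91 times.

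By animal, the M18335_f_at level was 10.60, 12.30, 12.10 and 12.72 in sufficient animals 1 to 4 and 6.80, 6.47, 6.82 and 5.81 in deficient animals 1 to 4. The log2 differences between the diets were -5.45 (SE 0.39) for M18335_f_at, -4.76 (SE 0.37) for M31031mRNA_f_at and -4.67 (SE 0.28) for rc_AA945573_f_at. Each was smaller than that of the Cyp2c7 probe set, and the deficient means of these 3 probe sets, 6.47 to 6.64, stayed further above the floor. Whether the remaining signal comes from Cyp2c7, Cyp2c7l1, another relative or background was not tested.

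Cyp2c22 was lower in deficient livers too, but stayed measurable there. Deposited intensities of M58041_s_at had a lowest, median and highest value of 4756, 7521 and 14158 on sufficient arrays and 596.4, 707.9 and 941.9 on deficient arrays. The level in sufficient animals 1 to 4 was 12.73, 11.96, 11.27 and 11.57, and in deficient animals 1 to 4 it was 8.51, 8.45, 8.58 and 8.90. The deficient animals sat in a narrow band and the diets did not overlap. The means were 11.88 ± 0.63 (SD, n = 4) and 8.61 ± 0.20 (SD, n = 4), a log2 difference of -3.27 (SE 0.26) or 9.66-fold.

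**Figure D1:**
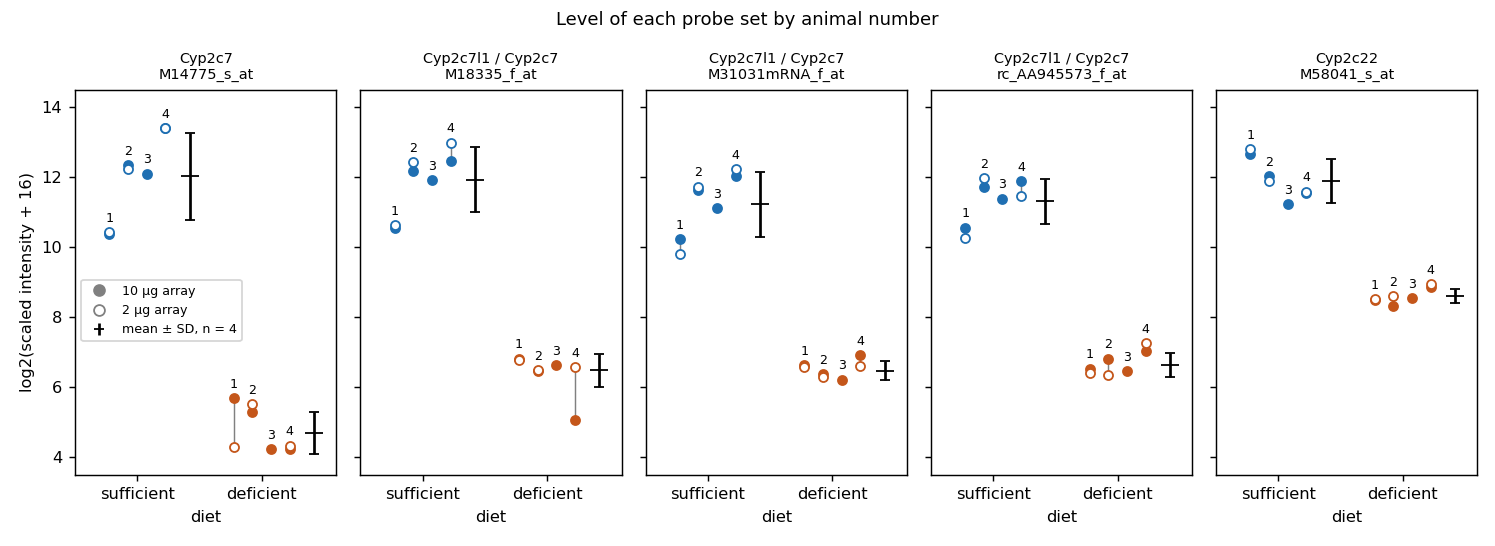
Level of each of the 5 probe sets as log2 of the scaled intensity plus 16 (vertical axis) by diet, with the animal number over each point, filled circles for 10 µg arrays, open circles for 2 µg arrays, and bars for the mean ± SD of 4 animals. No deficient array reaches any sufficient array of the same probe set, Cyp2c7 lies near the floor of 4 in deficient livers, and levels of different probe sets are not comparable with each other.

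In all 5 probe sets the 4 deficient values lay below the 4 sufficient values. Over the 5244 probe sets bright enough to be tested, 3.07% showed that pattern and 5.84% the reverse. By limma adjusted p under 0.05, 0.973% (51) passed as lower in deficient livers and 0.744% (39) as higher. With arrays set to a common median, 60 of 77 passing probe sets were lower. The 5 probe sets were chosen on this contrast, so their count is read no further. All 5 passed the filter on dim probe sets, a mean level of at least 6.196 over the 14 arrays. The deficient mean of Cyp2c7 lay under that level, so this probe set passed through its sufficient arrays.

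Ordered by size, the 5 differences took places 1, 2, 4, 5 and 6 among the falls of all 5244 probe sets. Because the genes were chosen on this difference, these places are a description only. The 1 other probe set among them, at place 3, was that of the pheromone carrier Obp3 at -5.02. The median difference over all tested probe sets was 0.04, with 5th and 95th percentiles of -0.45 and 0.52.

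**Figure D2:**
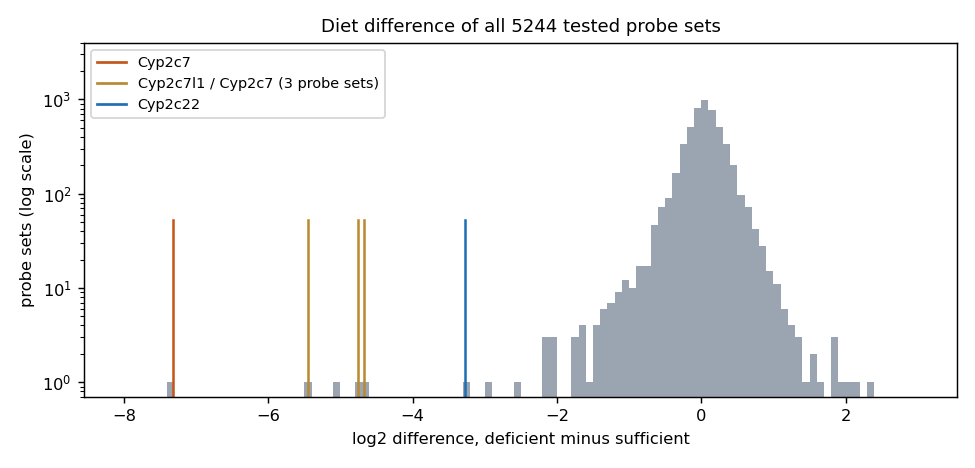
Number of probe sets (vertical, log scale) by log2 difference, deficient minus sufficient (horizontal), for all 5244 tested probe sets, with vertical lines at the 5 Cyp2c7, Cyp2c7l1 and Cyp2c22 probe sets. The lines stand at -7.32 to -3.27, while 5% of all probe sets lie below -0.45. The 5 marked probe sets were chosen on this difference.

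Among sufficient livers the Cyp2c7 level itself varied widely, and Cyp2c22 ran in another order. Cyp2c7 spanned 3.00 on the log2 scale between sufficient animals 1 and 4, a 7.98-fold range, with an SD of 1.24 against a median SD of 0.22 over all tested probe sets. Of the 5244 tested, 17 had a larger SD among sufficient animals. From highest to lowest the order was animal 4, 2, 3 and 1 for Cyp2c7, M18335_f_at and M31031mRNA_f_at, and animal 2, 4, 3 and 1 for rc_AA945573_f_at.

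From highest to lowest, Cyp2c22 ran in the order animal 1, 2, 4 and 3. Sufficient animal 1, the lowest for Cyp2c7 and its 3 related probe sets, was the highest for Cyp2c22. Animal 4 minus animal 1 was 3.00 for Cyp2c7 and -1.17 for Cyp2c22. The same contrast was 3.02 and -1.12 in the 10 µg arrays and 2.97 and -1.21 in the 2 µg arrays, so both directions recurred in separate arrays. With 4 animals no correlation is given.

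**Figure D3:**
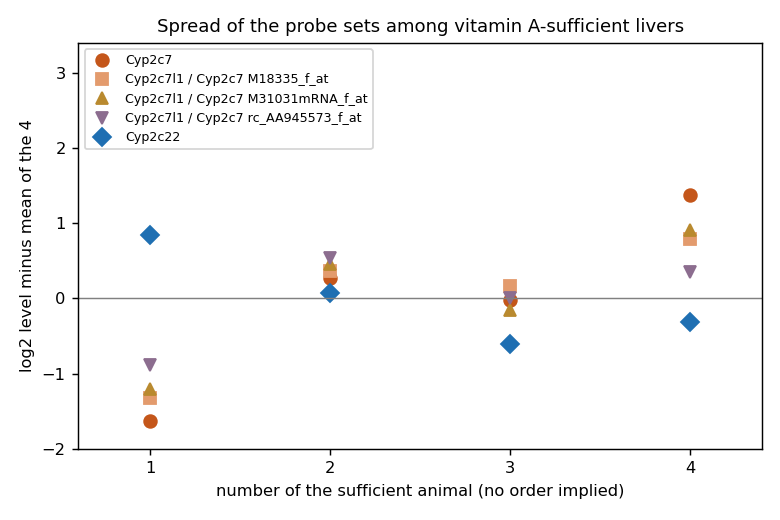
Level of each probe set in the 4 vitamin A-sufficient animals minus its mean over them (vertical, log2), by animal number (horizontal, with no order implied). Animal 1 is lowest for the 4 probe sets that include Cyp2c7 and highest for Cyp2c22.

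The values of 3 regulators of hepatic Cyp2c genes in the same livers are given here, chosen after they were seen. Dbp, a clock-controlled transcription factor, was 4.60, 9.28, 7.59 and 6.49 in sufficient animals 1 to 4 and between 9.09 and 9.63 in deficient animals. Onecut1, a liver transcription factor, was 6.76, 8.30, 7.23 and 8.96 in sufficient animals 1 to 4, in the order seen for Cyp2c7. That order was shared by 193 of 5244 tested probe sets, or 3.68%, among them 3 other listed genes with smaller ranges, Por (1.15), Tef (0.55) and Hmox1 (0.44), against 2.20 for Onecut1. Ghr, the growth hormone receptor, was 12.88, 13.22, 13.27 and 13.44. The part of these genes in the spread of Cyp2c7 was not tested.

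The amount of RNA used for an array is a comparison on which the genes were not chosen. For Cyp2c7 the 2 µg minus 10 µg difference was -0.08 (SE 0.47, limma adjusted p = 0.990 over 14 arrays). For Cyp2c22 it was 0.18 (SE 0.21, limma adjusted p = 0.923), and the 3 shared probe sets lay between -0.09 and 0.30. None of the 5 passed, and 0 of 5244 probe sets passed in limma (0%), with 347 at an unadjusted p under 0.05. With diet and number as a block, 2 probe sets passed (0.0381%), with 632 at an unadjusted p under 0.05. Again none of the 5 passed, at limma adjusted p of 0.412 to 0.757. In that fit the difference was -0.18 (SE 0.18) for Cyp2c7 and 0.08 (SE 0.07) for Cyp2c22.

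Within the 6 pairs of arrays, the mean difference was -0.18 ± 0.60 (SD, n = 6 pairs) for Cyp2c7, higher at 2 µg in 4 of 6 pairs (exact two-sided sign-flip permutation p = 0.844). For Cyp2c22 it was 0.08 ± 0.14 (SD, n = 6 pairs), higher in 5 of 6 (exact p = 0.250). The smallest p that 6 pairs allow is 0.0312, and over the 5 probe sets the adjusted exact p lay between 0.469 and 0.844. The largest differences within a pair were in deficient animals: -1.39 for Cyp2c7 in animal 1, where the deposited intensity was 70.1 at 10 µg and 7.2 at 2 µg, and 1.50 for M18335_f_at in animal 4, where it was 34.6 and 156.2. In sufficient animals the Cyp2c7 pairs differed by -0.10 to 0.06.

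The diet difference was also computed within each RNA amount. For Cyp2c7, whose deficient level lies near the floor, it was -7.19 in the 10 µg arrays and -7.31 in the 2 µg arrays, an interaction of -0.12 (SE 0.96, limma adjusted p = 1.00). For Cyp2c22 it was -3.31 and -3.41, an interaction of -0.10 (SE 0.43, limma adjusted p = 1.00). These SEs come from arrays entered as separate samples, so they include the spread between animals. With diet and number as a block, the interaction was -0.35 (SE 0.37) for Cyp2c7 and 0.11 (SE 0.15) for Cyp2c22. Neither passed (limma adjusted p = 0.997 for both). An interaction small against these SEs was not detectable for either gene, and these values do not show that the difference is equal at both amounts. In limma 0 of 5244 probe sets passed this test (0%), with 96 at an unadjusted p under 0.05, and 0 passed with the block, with 197 at an unadjusted p under 0.05.

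Other Cyp2c genes differed in direction. Of 5 further Cyp2c genes measured, each taken by its brightest probe set, 1 fell, 1 rose and 3 did not pass (limma adjusted p under 0.05; 1.72% of all tested probe sets passed in either direction). Their median difference was -0.30, against 0.04 over all tested probe sets. Because probes for 1 Cyp2c gene may also bind its close relatives, which gene gave each signal is uncertain. This holds for the Cyp2c7 and Cyp2c22 probe sets too.

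Cyp2c13, a male-predominant P450 that lies 154 kb from Cyp2c22, fell. Its brighter probe set, M82855cds_s_at, was 13.73, 13.66, 13.29 and 13.06 in sufficient animals 1 to 4 and 11.28, 11.49, 11.44 and 11.03 in deficient ones, a difference of -2.12 (SE 0.16, limma adjusted p = 4.2e-05). Its other probe set gave -2.60. The diets did not overlap in either, and sufficient animal 4 was the lowest sufficient liver in both.

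Cyp2c12, a female-predominant P450 that lies 24.8 kb from Cyp2c13, rose. Its M33550cds_s_at level was 8.67, 9.29, 8.61 and 9.13 in sufficient animals 1 to 4 and 10.24, 10.58, 9.94 and 10.46 in deficient ones (difference 1.38, SE 0.19, limma adjusted p = 0.00319). Its other probe set, J03786_s_at, gave 1.54 (SE 0.25, limma adjusted p = 0.00915). In the 2 µg arrays alone the M33550cds_s_at difference was 1.25 and no longer passed (limma adjusted p = 0.103, against 2.5e-04 to 0.00833 under 8 other settings of scaling, pseudocount, amount, block or trend). The J03786_s_at difference in those 2 µg arrays was 1.36 and still passed (limma adjusted p = 0.0408).

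By their brightest probe sets, the 3 Cyp2c genes that did not pass were Cyp2c11, the main male-specific P450 of rat liver, at -0.30 (SE 0.11, limma adjusted p = 0.232), Cyp2c6v1 at -0.44 (SE 0.12, adjusted p = 0.112) and Cyp2c23, an arachidonic acid epoxygenase, at 0.11 (SE 0.12, adjusted p = 0.768). The other 2 Cyp2c11 probe sets gave larger differences, -0.53 (M18363cds_s_at) and -0.73 (X79081mRNA_f_at, adjusted p = 0.0934), which did not pass either. Cyp2c6v1 ends 49.5 kb before Cyp2c7 begins, whereas Cyp2c11 and Cyp2c23 lie 1668 and 3858 kb from their nearest measured Cyp2c neighbour. By J02657_s_at, the level of Cyp2c11 was 13.88, 13.86, 13.83 and 13.83 in sufficient animals 1 to 4, a range of 0.05, while Cyp2c7 spanned 3.00 in the same livers. By the other Cyp2c11 probe sets the range was wider, 0.31 for M18363cds_s_at and 0.52 for X79081mRNA_f_at.

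**Figure D4:**
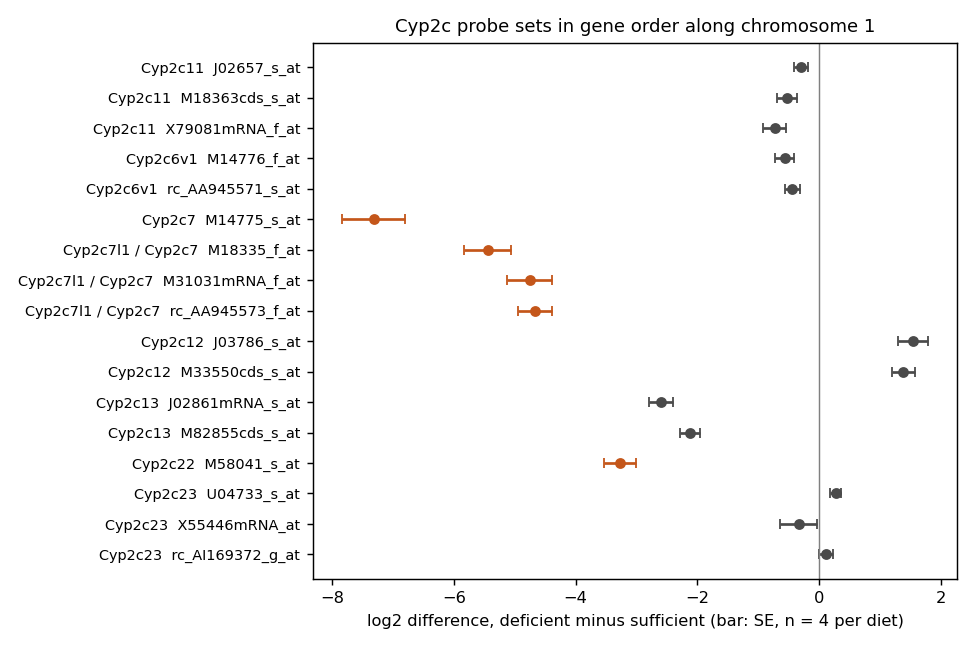
Log2 difference, deficient minus sufficient (horizontal, bars show the moderated SE of the limma fit, n = 4 per diet), of every Cyp2c probe set, in the order of the genes along chromosome 1, with the Cyp2c7, Cyp2c7l1 and Cyp2c22 probe sets in orange. Neighbouring genes lie on both sides of 0: Cyp2c12 at 1.38 and 1.54 stands between Cyp2c7 and Cyp2c13, while Cyp2c11, Cyp2c6v1 and Cyp2c23 lie within 0.73 of 0.

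Of the other genes that make, clear or respond to retinoic acid, none passed by its brightest probe set. Over all tested probe sets 1.72% passed in either direction, so a count of 0 in lists this short is near the background. Of 11 tested P450s and conjugating enzymes that act on retinoids, 0 passed in limma, with a median difference of 0.22. The largest differences in this list were Cyp2b2 at -2.05 (SE 0.60, adjusted p = 0.134), a phenobarbital-inducible P450, and Cyp1a1 at 1.63 (SE 0.42, adjusted p = 0.0914), an aryl hydrocarbon-inducible one, both named after their values were seen. Cyp2b2 ranged from 9.06 to 12.37 among deficient animals. Of 3 Cyp4a1 probe sets, the brightest gave 0.42 and did not pass, while rc_AA924267_s_at passed at 0.75 (SE 0.16, adjusted p = 0.0486) but in none of the fits that left out 1 animal (adjusted p of up to 0.163). Cyp26b1, a main retinoic acid hydroxylase, was too dim to be tested, and Cyp26a1 was listed but had no tested probe set.

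Of 9 tested genes of retinoic acid supply, which carry retinol or convert it to retinal and retinoic acid, 0 passed in limma, with a median of 0.03. The median was -0.01 over 6 tested receptors, binding proteins and targets, where 0 passed, with Rara at 0.23 (SE 0.12) and Rxra at 0.00 (SE 0.12). The 8 tested redox partners and heme enzymes of P450s also gave 0 passes. Por, the reductase that passes electrons to every microsomal P450, was 0.05 (SE 0.23), and Alas1, which begins hepatic heme synthesis, was -1.01 (SE 0.36, limma adjusted p = 0.225). Over these 4 lists, with 11, 9, 6 and 8 genes tested, 9 genes had an unadjusted limma p under 0.05. Of these, Cyp1a1, Cyp2e1 and Rxrb were higher in deficient livers. Cyp1a2, Cyp2b2, Cyp3a9, Rdh16, Fabp5 and Alas1 were lower. The share of all tested probe sets at that unadjusted threshold is not given here, so the count is read no further.

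Of 15 tested regulators of hepatic Cyp2c genes, Ghr fell and 14 did not pass, with a median of 0.03. Ghr was -1.21 (SE 0.19, limma adjusted p = 0.00793) by its brightest probe set, while the other 2 did not pass, at -0.69 and -0.50. Hnf4a, a nuclear receptor on which many liver genes depend, was 0.33 (SE 0.12, adjusted p = 0.244), and Dbp was 2.36 (SE 0.74, adjusted p = 0.160). Over the 6 lists 3 genes passed. This count was 6 without deficient animal 3, 5 without sufficient animal 1, and 9 when all 14 arrays entered the fit, with a random block for each diet and number.

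By profile over the 8 animals, the gene nearest to Cyp2c7 in size was Obp3. The measure was the root mean square difference of mean-centred log2 levels, and it carries the diet contrast on which Cyp2c7 was chosen. It was 1.56 for Obp3 (J00738_s_at), 2.29 for Scd, the stearoyl-CoA desaturase, 2.55 for Cyp2c13, 2.90 for Rpp21 and 2.97 for Cyp2b2. The 3 shared Cyp2c7 and Cyp2c7l1 probe sets were nearer still, at 1.05 to 1.48, and Cyp2c22 stood at 2.34.

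With each profile also divided by its SD, so that only its shape counts, the nearest to Cyp2c7 was Rpp21 (rc_AA893905_at) at 0.10, followed by Scd at 0.22, Nln at 0.23, Mettl7b at 0.25 and Erp29 at 0.27. The shared probe sets stood at 0.12 to 0.17 and Cyp2c22 at 0.41. The rc_AA893905_at probe set of Rpp21 was 9.16, 9.67, 9.52 and 9.81 in sufficient animals 1 to 4 and 8.26, 8.13, 8.10 and 8.12 in deficient ones. Its sufficient animals ran in the order of Cyp2c7, over a smaller range. That order was shared by 3.68% of tested probe sets. The probe set was picked for its nearness over these same values, so the shared order adds no support.

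Of the 5 genes nearest to Cyp2c22 by size, Cyp2c13, Scd, Obp3 and Rpp21 were also among those nearest to Cyp2c7. By shape, the genes named for Cyp2c22 differed from those named for Cyp2c7. By size, Cyp2c13 came first at 0.56, then Scd at 0.77, Obp3 at 0.87 by a second probe set (X14552_at), Acsm3 at 0.91 and Rpp21 at 0.96. By shape, the nearest were Ldhd at 0.17, the peroxisomal thiolase Acaa1b at 0.18, Cyp2c13 at 0.22, the vasopressin receptor Avpr1a at 0.25 and Pctp at 0.32. Acaa1b was 10.58 in sufficient animal 1 and 9.99 to 10.09 in the other sufficient livers, so that animal 1 was the highest, as for Cyp2c22. Acaa1b was likewise picked over these same values, so this likeness adds no support.

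Trimmed means of the deposited arrays lay between 1001.9 and 1002.1, as the scaling before deposit sets them, while median intensities ranged from 175.1 to 230.9. Hepatocyte markers were bright in both diets. Summed over 7 hepatocyte markers, scaled intensity was 169808 to 217203 in sufficient and 199029 to 235677 in deficient animals, and none passed in limma. Erythroid markers moved with the diet in the direction of Cyp2c7: 2 of 4 tested, Hbb and Alas2, fell, and their sum was 8104 to 9860 in sufficient and 2435 to 4081 in deficient animals. Macrophage markers summed to 3843 to 5597 and 6249 to 8569, with Lgals3 higher among 4 tested, and endothelial markers to 567 to 697 and 444 to 547, with Lyve1 lower among 3 tested. Of 6 tested stellate cell markers, Vim was higher, with sums of 1934 to 2804 and 1976 to 2521. No cholangiocyte marker of 4 tested and no lymphocyte marker of 2 tested passed, with sums of 391 to 425 and 439 to 614, and of 360 to 418 and 345 to 491. The 2 neutrophil markers were too dim to be tested, with sums of 17 to 140 and 59 to 114. No marker was at 0, and the part of these cells in the Cyp2c differences was not tested. In bulk liver, fewer cells of a type and less RNA per cell cannot be told apart.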

How the data were processed

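The authors deposited a linear intensity per probe set for each array. Which program made it is not given in the sources used here, and the values show that arrays had been scaled to 1 trimmed mean (2% off each end). Labelled targets followed Affymetrix's usual protocol, per the labels.

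Without 59 control probe sets 8740 remained, and each array was set to a trimmed mean of 500. Levels are log2 of the scaled intensity plus 16, which understates changes of dim genes. Probe sets under the 40th percentile of the mean (6.196) were left out, leaving 5244. Symbols came from the platform annotation, and 0 columns were unmapped.

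For the diet, the mean shift between RNA amounts was removed and arrays of 1 diet and number were averaged (4 per diet). Fits used lmFit and eBayes with a trend in limma 3.58.1 (R 4.3.3), two-sided, with Benjamini-Hochberg adjustment and a threshold of 0.05. Amount and interaction used 14 separate arrays. Scripts were tested on simulated data.

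Arrays of 1 diet and number correlated at 0.202 to 0.351 in their deviations from group means (6 pairs), whereas arrays of unlike number gave -0.254 to 0.124. Part of this gap is built in, because deviations within a group cancel out, which pushes arrays of unlike number towards negative values. The pairing rests on the number and on this check. The same number across diets gave -0.0763 to 0.0672.

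Genes named were the Cyp2c7, Cyp2c7l1 and Cyp2c22 probe sets, every Cyp2c gene, up to 4 passing genes per list and the 5 nearest profiles by each measure; others were chosen after their values were seen. The genes and lists were chosen with earlier results of these data known. A gene in a list was taken by its brightest probe set. Promoter sequences are RefSeq's, GRCr8; windows were found for Cyp2c7 and Cyp2c22. The alternatives changed the scaling (median or quantile), the pseudocount (1 or 64) or the filter (none or the 60th percentile), or used no trend, each RNA amount alone, no shift removal, blocks by number, and leaving out each animal.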

Additional observations from a re-analysis of the deposited data

Results flagged for a closer look

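Among the Cyp2c probe sets and the listed genes that passed, 36 groups of 4 animals were checked for a sample far from the others, and 1 stood out. Cyp2c12 by J03786_s_at was 9.39 in deficient animal 3, against 9.90 for the nearest deficient animal, a gap that is 0.830 of the group's range. Chance flags about 1 in 20 such groups.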

How the results depend on the processing

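The 5 diet differences were negative under the 7 settings for which they were recomputed (scaling, pseudocount, each amount alone, no shift removal) and with each animal left out; in the latter, Cyp2c7 lay between -7.86 and -6.86 and Cyp2c22 between -3.48 and -2.99. Of these 7, only the pseudocount moved them by more than the spread between animals: Cyp2c7 to -8.91 with 1 and -5.82 with 64, and rc_AA945573_f_at to -4.13 with 64. Passing probe sets, 90 in the diet comparison, numbered 33 in the 2 µg arrays alone, 250 when 14 arrays entered with a random block for each diet and number, 77 with the number across diets as a replicate block, and 50 to 94 with an animal left out (50 without deficient animal 4, 58 without sufficient animal 3). Listed genes that passed numbered 9 with the random block and 3 to 6 with an animal left out. For the RNA amount, 2 probe sets passed with the block and 0 to 2 with an animal left out.

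No amount or interaction difference of the 5 probe sets passed under any alternative, at adjusted p of at least 0.412 and 0.997, and several changed sign. The amount difference of M31031mRNA_f_at was 0.00 with median scaling and with quantile normalization. The interaction was 0.00 for M31031mRNA_f_at with median scaling, -0.04 for M18335_f_at with a pseudocount of 64 and 0.11 for Cyp2c22 with the block. With an animal left out, the amount difference ran from -0.19 to 0.13 for Cyp2c7, -0.12 to 0.13 for M31031mRNA_f_at and -0.19 to 0.00 for rc_AA945573_f_at. The interaction ran from -0.38 to 0.37 for Cyp2c7, -0.24 to 0.39 for M18335_f_at, -0.43 to 0.17 for M31031mRNA_f_at, -0.08 to 0.38 for rc_AA945573_f_at and -0.25 to 0.11 for Cyp2c22. The cause was not tested. The block changed no call of the 5 probe sets. The number of arrays, and for Cyp2c7 the dim signal in deficient livers, limit the precision.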
